A study of Homo sapiens with 3 samples.

Results

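The heat shock proteins and their J-domain partners were followed in 293T cells, a human embryonic kidney line that carries the SV40 large T antigen, after knockdown of TARBP2, which binds double-stranded RNA and works with DICER1 in microRNA processing. The genes were chosen by symbol from the array's annotation: the HSPA (without HSPA5), HSPB, HSPH1, HSPD1, HSPE1 and HSP90A genes, the DNAJA, DNAJB and DNAJC genes, ST13, STIP1, BAG3 and HSPBP1, and the factor HSF1. They numbered 77 of 20046 named genes and had 118 of 47323 probes. AHSA1 was also sought, but no probe carried that symbol, so it was not analysed here. Total RNA was taken 48 h after lipid transfection and hybridised to 3 Illumina BeadChips: siTARBP2-1 (siRNA 1), siTARBP2-2 (siRNA 2) and siControl (control), with 1 array each. The design text calls the control mock-transfected, whereas its sample label names a control siRNA. Nothing in the labels tells whether the 2 siRNA samples came from separate cultures, and every difference from control rests on 1 control array.

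Heat shock proteins are chaperones that bind unfolded protein, and most of them cycle on and off their clients by binding and hydrolysing ATP. HSP70 proteins (the HSPA genes) take clients from J-domain proteins (the DNAJ genes), which trigger ATP hydrolysis, and release them when an exchange factor such as an HSP110 removes ADP. HSP90 receives clients from HSP70 over the adaptor STIP1, small heat shock proteins hold clients without ATP, and the HSPD1 and HSPE1 chaperonin folds proteins inside mitochondria. Under heat or other protein stress HSF1 forms a trimer and binds heat shock elements, inverted repeats of GAA, in the promoters of the inducible genes.

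A heat shock element is the feature by which inducible chaperone genes are usually grouped. Shown are 4 promoters with an exact match to a 3-unit element and those of the near-identical genes HSPA1A and HSPA1B. Imperfect 3-unit elements were not searched, so a window without a match may still hold one. The promoters were chosen with the differences known. HSPA6, DNAJB6, HSPA1A and HSPA1B are also among the genes at least 1.5-fold below control with siRNA 2. Of the other such genes, the DNAJC10 window held no match, and no window was at hand for ST13. Windows of DNAJA1, HSP90AA1 and HSPD1 held a match and are not printed. A 3-unit element was searched as GAANNTTCNNGAA and, on the other strand, TTCNNGAANNTTC, in windows from 250 bases before to 50 bases after each gene's start (RefSeq, GRCh38.p14; a gene with several starts has several windows). The 250 bases before the start are printed 5′ to 3′ on the gene's strand. Capitals mark 3-unit matches in the first 4 sequences and the 2-unit match GAANNTTC in HSPA1A and HSPA1B, whose windows held no 3-unit match.
HSPA6, chr1:161524290-161524539, plus strand: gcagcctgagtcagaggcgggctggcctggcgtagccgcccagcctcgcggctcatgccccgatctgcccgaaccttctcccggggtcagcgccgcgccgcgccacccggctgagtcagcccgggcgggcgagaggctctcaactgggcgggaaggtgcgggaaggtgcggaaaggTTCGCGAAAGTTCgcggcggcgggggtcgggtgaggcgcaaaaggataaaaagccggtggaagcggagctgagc
DNAJB6, chr7:157336754-157337003, plus strand: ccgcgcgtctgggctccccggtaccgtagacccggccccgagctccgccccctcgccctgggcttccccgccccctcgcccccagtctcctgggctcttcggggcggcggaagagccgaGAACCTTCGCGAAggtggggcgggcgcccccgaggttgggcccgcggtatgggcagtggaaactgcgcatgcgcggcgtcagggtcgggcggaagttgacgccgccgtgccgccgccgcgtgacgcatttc
HSPA8, chr11:123062137-123062386, minus strand: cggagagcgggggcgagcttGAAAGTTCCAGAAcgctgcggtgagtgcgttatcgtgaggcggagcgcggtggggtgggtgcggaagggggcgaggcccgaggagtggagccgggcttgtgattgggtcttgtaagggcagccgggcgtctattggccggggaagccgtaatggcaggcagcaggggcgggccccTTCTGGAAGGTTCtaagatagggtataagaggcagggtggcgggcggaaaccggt
HSP90AB1, chr6:44247693-44247942, plus strand: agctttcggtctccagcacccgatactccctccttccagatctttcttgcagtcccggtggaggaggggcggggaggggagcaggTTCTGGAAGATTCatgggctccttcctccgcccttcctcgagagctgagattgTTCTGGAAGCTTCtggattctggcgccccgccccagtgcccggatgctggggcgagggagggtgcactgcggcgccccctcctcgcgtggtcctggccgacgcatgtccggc
HSPA1A, chr6:31815293-31815542, plus strand: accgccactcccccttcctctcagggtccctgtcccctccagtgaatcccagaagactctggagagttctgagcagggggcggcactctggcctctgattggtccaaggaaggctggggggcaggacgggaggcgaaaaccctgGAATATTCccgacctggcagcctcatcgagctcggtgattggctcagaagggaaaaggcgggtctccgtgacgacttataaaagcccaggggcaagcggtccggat
HSPA1B, chr6:31827488-31827737, plus strand: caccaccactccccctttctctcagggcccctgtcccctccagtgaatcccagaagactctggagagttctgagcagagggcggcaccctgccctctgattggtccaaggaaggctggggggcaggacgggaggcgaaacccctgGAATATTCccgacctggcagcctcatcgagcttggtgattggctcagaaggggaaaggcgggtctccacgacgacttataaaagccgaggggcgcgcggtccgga

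A promoter window was at hand for 66 of the 77 genes, and 7 of them (10.6%) held a 3-unit match: DNAJA1, DNAJB6, HSP90AA1, HSP90AB1, HSPA6, HSPA8 and HSPD1. The share over all 27305 genes with a promoter window was 0.608%. With only 2 units, GAANNTTC or TTCNNGAA, which every 3-unit match also contains, the shares were 34.8% (23 genes) and 16.2%. The HSPA6 match began 74 bases before the gene's start, the DNAJB6 match 131 bases before it and the HSPA8 matches 230 and 55 bases before it. Aligned to each other, the HSPA1A and HSPA1B windows were identical at 277 of 301 alignment positions. A window of HSPD1 (minus strand) and that of HSPE1 (plus strand) overlapped by 204 bases on chromosome 2, since both genes are transcribed outward from shared upstream sequence. The 3-unit matches counted for HSPD1 lie in its other window, which did not overlap that of HSPE1. A match is a string of letters in the window and was not tested as a binding site.

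The arrays were checked on the targeted gene. TARBP2 stood at 6.27 with siRNA 1, 6.09 with siRNA 2 and 8.38 in control (log2 normalized signal), a mean difference of -2.21 ± 0.25 (moderated SE from limma, n = 2 arrays against 1). Its limma adjusted p was 0.328, and 0.00423 with a trended and robust variance prior. Among markers, VIM, CDH2, KRT8 and NEFM were above background on every array and KRT18 on 2 of 3. PAX2, a kidney factor, was not above background on any. Of 10 genes of other cell types, 8 were not above background on any array, COL1A1 was above it on all 3 and ALB on the control array only (log2 signal 5.65, near the lowest detected signal of 5.29). Before normalization the mean signal per probe was 680.4 for siRNA 1, 514.3 for siRNA 2 and 528.5 for control.

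Of the 77 genes, 59 were detected, meaning that the brightest probe had p under 0.01 for signal above background on any array, and 58 of these were detected on all 3. All 4 co-chaperones, both HSP90 genes, all 3 HSP110 genes, both chaperonin genes and 10 of 12 HSP70 genes were detected, as were 3 of 4 DNAJA, 9 of 13 DNAJB and 24 of 29 DNAJC genes. Small heat shock proteins were mostly dark: HSPB1 and HSPB3 were detected, and HSPB2, HSPB6, HSPB7, HSPB8 and HSPB9 were not. HSF1, the factor that drives the heat shock response, gave no signal above background at its lone probe, with raw signals of 63.6, 51.7 and 57.9 and detection p of 0.370, 0.771 and 0.455 for siRNA 1, siRNA 2 and control. No difference can therefore be given for HSF1. Just inside the detection limit lay DNAJC22, with a detection p of 0.00519 on the siRNA 1 array, and just outside it lay DNAJC16 (lowest detection p 0.0208), HSPA1L (0.0234) and DNAJC15 (0.0286).

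Relative to control, the 59 detected genes lay close to zero with siRNA 1 and somewhat below it with siRNA 2. With siRNA 1 the median difference was -0.03 log2 units, against 0.00 over all 11768 genes tested, and 34 of 59 (57.6%) were below control, against 49.1% of all genes. With siRNA 2 the median was -0.09, against 0.03 over all genes, and 37 of 59 (62.7%) were below control, against 46.0% of all genes. The siRNA 1 differences ran from -0.53 to 0.59 and the siRNA 2 differences from -0.98 to 0.57. Both siRNAs are set against the same control array. With array medians set equal in place of quantile normalization, all genes shifted to a median of 0.31 with siRNA 1 and -0.06 with siRNA 2. There the detected heat shock genes had medians of 0.26 and -0.16, which is -0.05 and -0.11 relative to that shift.

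**Figure D1:**
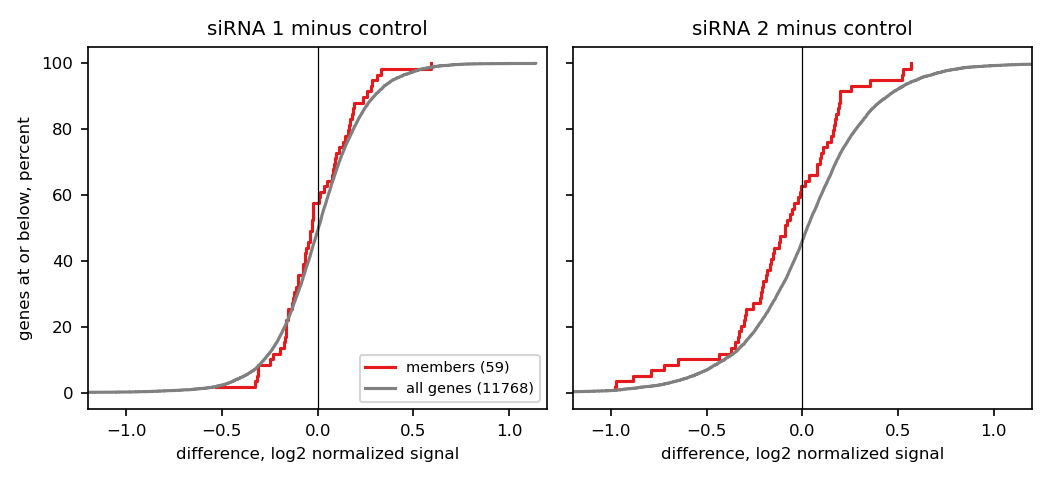
Cumulative share of genes (percent, vertical axis) at or below a given difference from control (log2 normalized signal, horizontal axis), for the 59 detected heat shock and J-domain genes and for all 11768 genes tested. With siRNA 1 the curves lie close together, and with siRNA 2 the heat shock curve lies to the left, with medians of -0.09 and 0.03.

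By limma's moderated test over all genes (2 knockdown arrays against 1 control, Benjamini-Hochberg adjusted p under 0.05), 0 of the 59 genes were higher and 0 lower, as for 0% of all genes in each direction. At an unadjusted p under 0.05 there was 1 higher gene, HSPA2, and 0 lower ones (0.858% and 0.875% of all genes). With a trended and robust variance prior 0 of the 59 passed at either level. The share of all genes at the unadjusted level is not given for that prior, so this count has no background to be read against. Each of the 59 had a limma adjusted p of 0.99991, which is not repeated below, and the moderated SE of their mean differences ran from 0.25 to 0.43. The fit had 1 residual degree of freedom, so that the spread between the siRNAs and the variance over all genes set each SE. Less RNA per cell and fewer cells holding it cannot be told apart in these bulk samples.

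By a fixed rule of size, 1.5-fold (0.58 log2 units) with no test, siRNA 1 had 1 gene higher and 0 lower among the 59, where 1.26% of all genes were higher and 1.36% lower (2.62% either way). With siRNA 2 there were 0 higher and 6 lower genes (10.2%), where 5.27% of all genes were higher and 4.88% lower (10.1% either way). The 6 were the HSP70 genes HSPA6, HSPA1A and HSPA1B, the HSP70 co-chaperone ST13 and the J proteins DNAJC10 and DNAJB6. Passing 1.5-fold in the same direction with each siRNA was found for 0 genes (0.45% of all genes higher and 0.476% lower), counts in which both sides share the control array. Set directly against each other without the control, the arrays showed the same 6 genes at least 1.5-fold higher with siRNA 1 than with siRNA 2 (10.2%, against 5.12% of all genes). The siRNA 2 array, on which the 6 were found low, enters both comparisons, so the second is not separate evidence. Only HSPA7, with signals close to background, was higher with siRNA 2 than with siRNA 1 by that size (1.69%, against 5.01%).

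HSPA6, HSPA1A and HSPA1B, which encode stress-inducible HSP70, lay lower on the siRNA 2 array than on either other array. HSPA6, a strictly inducible HSP70, stood at 6.74 with siRNA 1, 5.62 with siRNA 2 and 6.60 in control (log2 normalized signal, probe ILMN_1658383). Its differences were 0.14 with siRNA 1 and -0.97 with siRNA 2, so that the siRNA 2 array was 1.96-fold below control. That siRNA 2 value (raw 86.3, detection p 0.0039) lay near the lowest detected signal of its array, 5.38. The size of the HSPA6 difference is therefore uncertain. HSPA1A, the main inducible HSP70, stood at 7.94, 6.87 and 7.66 for siRNA 1, siRNA 2 and control, with differences of 0.28 and -0.79. Here too the siRNA 1 array was the highest of the 3 and the siRNA 2 array the lowest. HSPA1B, which encodes the same protein, stood at 13.84, 13.18 and 13.83, and its differences were 0.00 and -0.65. The 2 genes share nearly all of their coding sequence, so their probes may share transcripts. Mean differences over both siRNAs were -0.42 ± 0.43 for HSPA6, -0.26 ± 0.41 for HSPA1A and -0.32 ± 0.32 for HSPA1B (moderated SE, n = 2 against 1). A further probe of HSPA6, ILMN_1806165, was not above background with siRNA 1 and stood at 5.51 with siRNA 2 and 5.33 in control, close to the lowest detected signals of those arrays (5.38 and 5.29), so a decrease could not be measured there. HSPA7, annotated as a transcribed pseudogene of the HSPA6 type, stood at 5.30 with siRNA 1, 5.92 with siRNA 2 and 5.83 in control. Its raw signals of 89.4, 95.7 and 94.9 were close to background. The siRNA 1 value lay near the lowest detected signal of that array (5.25), so the direction of its difference is uncertain. HSPA1L, beside HSPA1A and HSPA1B in the family, was not detected. Without background correction HSPA6 and HSPA1A were -0.52 and -0.57 with siRNA 2, inside the 1.5-fold limit, and with the authors' processed values HSPA6 was -0.56 and HSPA1B -0.58.

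**Figure D2:**
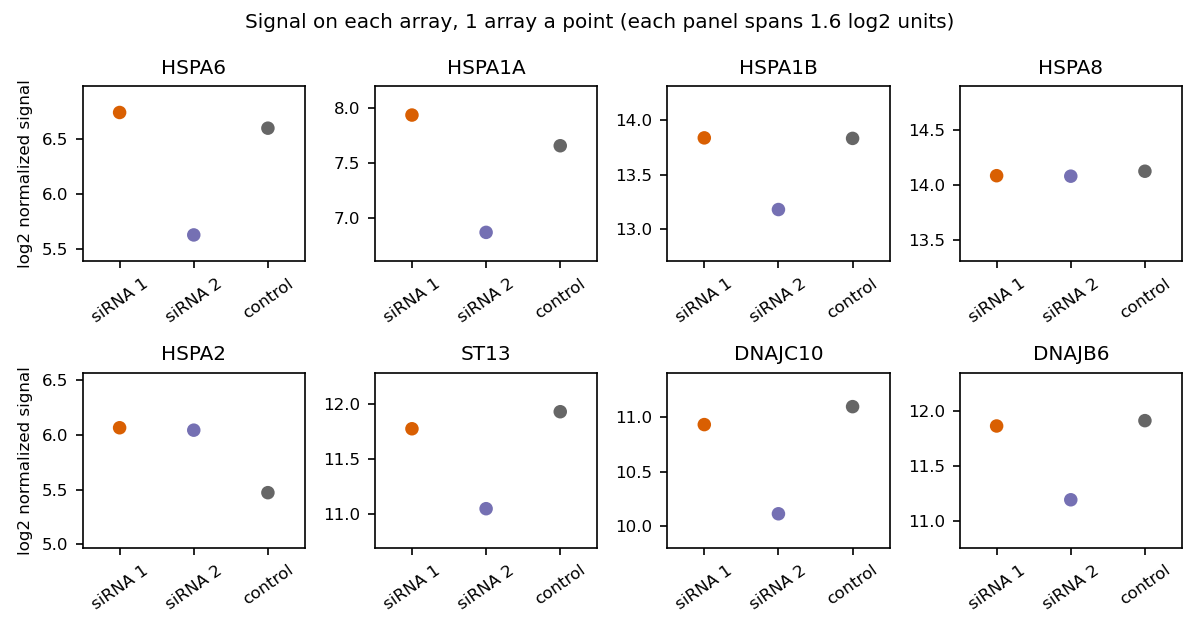
Log2 normalized signal (vertical axis) of 8 genes on the siRNA 1, siRNA 2 and control arrays, 1 point an array, each panel spanning 1.6 log2 units. HSPA6, HSPA1A, HSPA1B, ST13, DNAJC10 and DNAJB6 are lowest on the siRNA 2 array, HSPA8 is level (14.09, 14.08 and 14.13) and HSPA2 is lowest in control.

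The other HSP70 genes, HSPA2 aside, had differences between -0.33 and 0.20 at their brightest probes. HSPA8, the housekeeping HSP70 of the cytosol, stood at 14.09 with siRNA 1, 14.08 with siRNA 2 and 14.13 in control, a mean difference of -0.04 ± 0.25, and its other probe gave 0.01 with siRNA 1 and a value barely below control with siRNA 2. HSPA9, the HSP70 of the mitochondrial matrix and its import motor, stood at 13.49, 13.31 and 13.46, with differences of 0.03 and -0.15. HSPA14, a ribosome-associated relative, went to either side of control, with -0.33 and 0.20. HSPA13, a microsomal HSP70, was 0.05 and -0.26 at its brightest probe. Another HSPA13 probe, ILMN_3249645, gave -0.32 and -0.62, and the remaining one, ILMN_1670565, was not above background with siRNA 2 and so has only a bound there. HSPA12A, a distant member of the family, was -0.11 and 0.16.

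HSPA2, an HSP70 known for its role in sperm development, was the gene with the largest same-way difference. It stood at 6.06 with siRNA 1, 6.04 with siRNA 2 and 5.47 in control (probe ILMN_2153916). Both knockdown values lay above control, by 0.59 and 0.57, a mean of 0.58 ± 0.25 (limma unadjusted p = 0.0476, adjusted p = 0.99991). The signals were close to background (raw 125.5 with siRNA 1 and 83.8 in control), and the other HSPA2 probe gave -0.28 and 0.39. The mean difference was 0.28 without background correction and 0.29 with the authors' processed values.

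HSP90 and the HSP110 exchange factors had differences between -0.37 and 0.17. HSP90AA1, the inducible cytosolic HSP90, stood at 14.42 with siRNA 1, 14.43 with siRNA 2 and 14.52 in control, a mean difference of -0.10 ± 0.25. HSP90AB1, its constitutive twin, stood at 13.69, 13.30 and 13.52 (differences 0.17 and -0.22). The HSP110 proteins HSPA4 and HSPH1, which exchange nucleotide on HSP70 and help it to dissolve aggregates, were below control with either siRNA. HSPA4 stood at 11.74, 11.56 and 11.93, with -0.20 and -0.37, and a mean of -0.28 ± 0.25, while its other probe gave -0.12 and -0.07. HSPH1 stood at 12.35, 12.18 and 12.52, with -0.17 and -0.33, and a mean of -0.25 ± 0.25. Both means were close to their SE in size. HSPA4L, the third HSP110, was 0.01 and -0.16.

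The mitochondrial chaperonin was near control at its brightest probes. HSPD1, the barrel subunit, stood at 14.29 with siRNA 1, 14.34 with siRNA 2 and 14.32 in control, a mean difference of -0.01 ± 0.25. Its other 3 probes, 1 of them above background on 2 arrays only, gave from -0.26 to 0.01 with siRNA 2. HSPE1, the lid, stood at 11.75, 11.72 and 11.56, with 0.18 and 0.16, but the other HSPE1 probe, ILMN_2092536, stood at 11.38, 10.44 and 11.31, with 0.07 and -0.87. The 2 probes of HSPE1 thus differed by 1.03 log2 units with siRNA 2 and by 0.11 with siRNA 1. Of the small heat shock proteins, HSPB1, which holds unfolded protein in oligomers, was -0.07 and 0.18, and HSPB3, a muscle form, was -0.08 and 0.25. The raw HSPB3 signals of 95.4, 91.4 and 85.6 for siRNA 1, siRNA 2 and control were close to background, so its directions are uncertain.

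**Figure D3:**
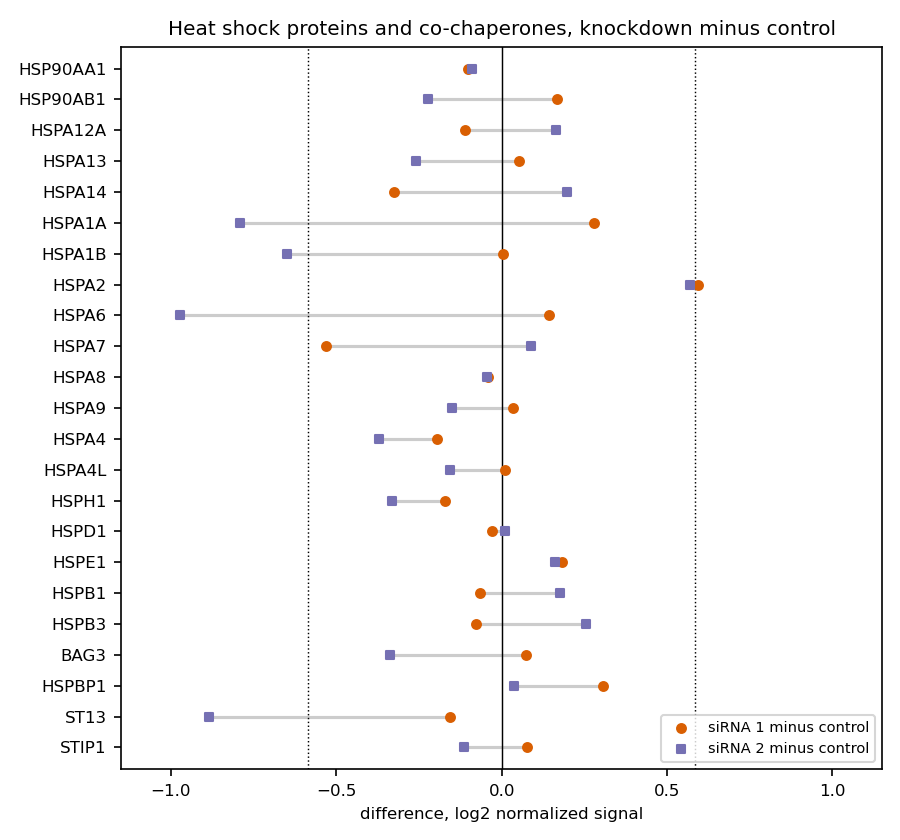
Difference from control (log2 normalized signal, horizontal axis) of each detected heat shock protein and co-chaperone with siRNA 1 (circles) and siRNA 2 (squares). Dotted lines mark 1.5-fold. HSPA6 (-0.97), ST13 (-0.88), HSPA1A (-0.79) and HSPA1B (-0.65) pass it on the low side with siRNA 2, and HSPA2 (0.59) on the high side with siRNA 1. The HSPA6 signal with siRNA 2 and the HSPA2 signals were close to background.

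Among the co-chaperones ST13 stood apart on the siRNA 2 array. ST13, also called Hip, holds HSP70 in its ADP state and so prolongs its grip on the client. It stood at 11.78 with siRNA 1, 11.05 with siRNA 2 and 11.93 in control, with -0.16 and -0.88 (1.85-fold below control with siRNA 2) and a mean of -0.52 ± 0.34. STIP1, the adaptor between HSP70 and HSP90, stood at 12.66, 12.47 and 12.58, on both sides of control. BAG3, an exchange factor that links HSP70 to autophagy and is itself an HSF1 target, stood at 10.20, 9.79 and 10.13, with 0.07 and -0.34. HSPBP1, another exchange factor, was 0.31 and 0.04, and its other probe gave 0.55 and 0.11.

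J-domain proteins made up 36 of the 59 detected genes, with medians of -0.04 for siRNA 1 and -0.07 for siRNA 2. DNAJC10, a disulfide reductase of the endoplasmic reticulum that works with its HSP70, had the widest difference. It stood at 10.93 with siRNA 1, 10.11 with siRNA 2 and 11.09 in control (probe ILMN_2151541), with -0.16 and -0.98, or 1.97-fold below control with siRNA 2. Its other probe gave -0.29 and -1.09, so both probes placed the siRNA 2 array lowest. DNAJB6, which keeps polyglutamine proteins from aggregating, stood at 11.86, 11.19 and 11.91, with -0.05 and -0.72. The low value was seen at that probe alone: the other DNAJB6 probe, annotated to a different RefSeq transcript of the gene, gave 0.04 and -0.06. DNAJB4, a cytosolic J protein, was 0.33 with siRNA 1 and -0.21 with siRNA 2 at its brightest probe. The other DNAJB4 probe gave -0.10 and -0.76.

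The DNAJA genes and DNAJB1 had differences between -0.21 and 0.18. DNAJB1, the main inducible J protein, stood at 11.06 with siRNA 1, 10.72 with siRNA 2 and 10.93 in control, with 0.13 and -0.21. DNAJA1, which serves HSP70 and HSP90 clients in the cytosol, stood at 13.10, 13.22 and 13.23, with -0.13 and -0.01. DNAJA2 was 0.18 and 0.08, and the mitochondrial DNAJA3 was 0.09 and 0.10. Whether DNAJB1 and the HSP70 genes differ in their response was not tested.

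The detected genes were also grouped by compartment. No compartment was assigned to 10 of them, DNAJC14, DNAJC18 and DNAJC25 included, so the groups may be incomplete. Those 10 had medians of -0.03 with siRNA 1 and 0.04 with siRNA 2, with 6 and 5 below control. The largest group, 32 genes assigned to the cytosol or nucleus, had medians of -0.06 and -0.10, with 18 and 21 below control. The 2 HSP90 genes, assigned to the cytosol, had medians of 0.03 and -0.16. The 8 detected genes assigned to the endoplasmic reticulum, HSPA13 included, had medians of -0.11 and -0.21. Of these 8, 7 were below control for each siRNA (49.1% of all genes with siRNA 1 and 46.0% with siRNA 2). DNAJC1, a membrane J protein at the translocon, was -0.24 and -0.35, with a mean of -0.29 ± 0.25. DNAJB14 and DNAJB12, which sit in the membrane with the J domain in the cytosol, were -0.16 and -0.43, and -0.25 and -0.16, at their brightest probes, with other probes on both sides of control. DNAJB11, a lumenal partner of the local HSP70, was -0.07 and -0.02. The 7 detected genes assigned to mitochondria, chaperonin and HSPA9 included, had medians of 0.09 and 0.10, with 2 of 7 below control for each siRNA. That count holds for the brightest probes. With siRNA 2 other probes gave -0.87 for HSPE1 and from -0.26 to 0.01 for HSPD1. DNAJC19, part of the import motor, was 0.19 and 0.17, and DNAJC11 lay on the other side, at -0.03 and -0.30. DNAJC30, which acts on respiratory complexes, was 0.29 and 0.52, but its other probe gave -0.03 and 0.02. These compartment medians have no test, and most of them describe few genes.

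Other DNAJC genes act in particular pathways rather than in general folding. DNAJC12, which helps to fold the aromatic amino acid hydroxylases, stood at 10.46 with siRNA 1, 10.33 with siRNA 2 and 10.20 in control, above control by 0.26 and 0.13, with other probes from 0.06 to 0.39 with siRNA 1 and from -0.06 to 0.30 with siRNA 2. DNAJC7, which returns clients to HSP70, was -0.16 and -0.17, and DNAJC5, the cysteine string protein of secretory vesicles, was 0.10 and 0.19. DNAJC8, a spliceosome-associated J protein, was -0.08 and 0.11. DNAJC28 was 0.11 and 0.52 at probe ILMN_1814204 (12.23, 12.65 and 12.12), while its other 3 probes were not above background on any array. DNAJB2, which handles ubiquitylated clients in neurons, was -0.14 and 0.35, and DNAJB5 was -0.12 and -0.32. The remaining DNAJ genes had differences between -0.32 and 0.24 with either siRNA at their brightest probe. The probe named for the readthrough gene DNAJC25-GNG10 cannot be told apart from one for GNG10.

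**Figure D4:**
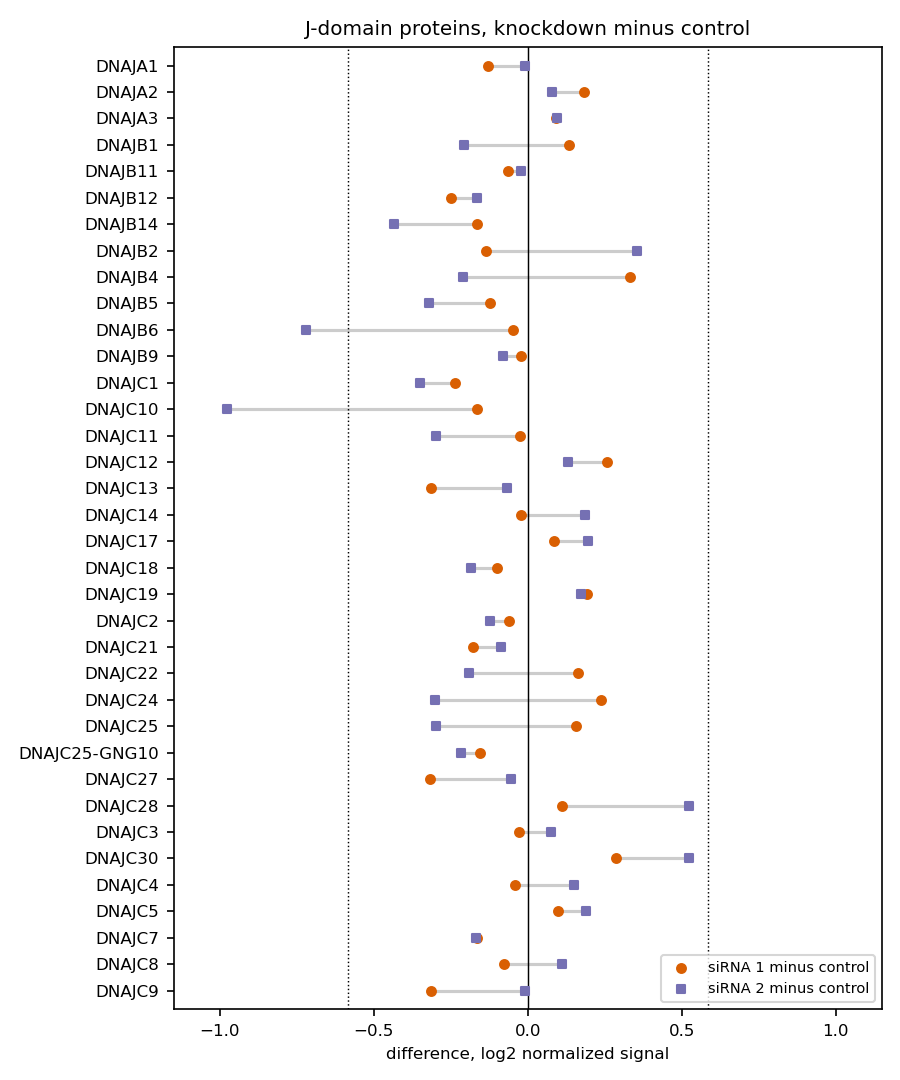
Difference from control (log2 normalized signal, horizontal axis) of each of the 36 detected J-domain genes with siRNA 1 (circles) and siRNA 2 (squares), with dotted lines at 1.5-fold. DNAJC10 (-0.98) and DNAJB6 (-0.72) pass it with siRNA 2, and no J-domain gene passes it with siRNA 1.

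Where a gene had several probes above background on any array, they often disagreed. Of 18 such genes, all probes gave the same sign with siRNA 1 in 6 and with siRNA 2 in 12. Counted by probe, 11 of the 86 detected probes (12.8%) were at least 1.5-fold below control with siRNA 2, against 5.9% of all named detected probes, and 0 with siRNA 1, against 1.56%. The 11 came from 9 genes, the 6 named above and DNAJB4, HSPA13 and HSPE1 through a dimmer probe, and include the HSPA13 probe that was not above background with siRNA 2. Among probes above background on all 3 arrays, a filter added after the data were seen, the count was 10 of 81 (12.3%), against 5.04%. Probes of a gene share its transcripts and are not replicates.

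**Figure D5:**
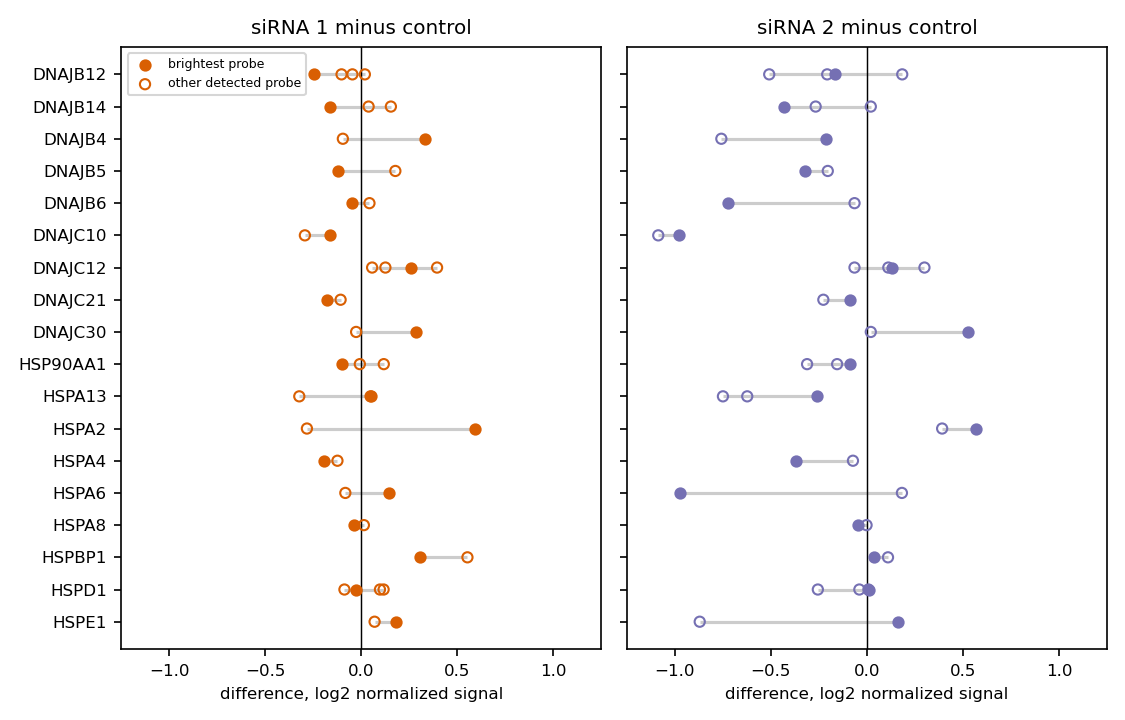
Difference from control (log2 normalized signal, horizontal axis) at every probe above background on any array of the 18 genes with several, for siRNA 1 (left) and siRNA 2 (right). Filled points are the brightest probe and open points the others. With siRNA 2 the probes of DNAJC10 lie together near -1, while those of HSPE1 span 1.03 log2 units. HSPA6 and HSPA13 each include a probe above background on 2 arrays only.

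In the authors' deposited table, which gives 1 log fold change of knockdown over control per accession (base not stated) and a 0 or 1 class, 85 accessions belonged to these genes. The authors' deposited table placed 1 of the 85 in the up-regulated class, DNAJC12 at 0.22, where 2.61% of all 39747 accessions were so classed. In the authors' deposited table the class divides by size: the lowest value inside it was 0.20003 and the highest outside it 0.19992. It has no class for decreases, so lower genes could not be marked. In the authors' deposited table the lowest values were -0.54 for DNAJC10, -0.50 for ST13, -0.37 for DNAJB6 and -0.29 for HSPA1B, and HSPA2 was at 0.09. These values come from the same 3 arrays and average over the siRNAs.

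Genes with an exact 3-unit match spread widely. The 7 genes with a match had medians of -0.04 with siRNA 1 and -0.09 with siRNA 2. For the 46 detected genes whose windows held none they were -0.02 and -0.07. Imperfect elements were not searched, so the 46 may include genes that have one. With siRNA 2, HSPA6 (-0.97) and DNAJB6 (-0.72) were in the first set, but so were HSPA8 (-0.05), DNAJA1 (-0.01) and HSPD1 (0.01). HSPA1A and HSPA1B, with only a 2-unit match in the printed windows, were at -0.79 and -0.65.

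Neighbouring chaperone systems were described by lists of genes outside the family. In each list 0 genes passed limma's adjusted test in either direction (0% of all genes). At an unadjusted limma p under 0.05 there was 1 lower gene of 17 HSF1 targets and 1 of 18 HSP90 co-chaperones, against 0.875% of all genes. For the counts below control given for each list, the shares of all genes were 49.1% with siRNA 1 and 46.0% with siRNA 2. Genes commonly named as further HSF1 targets (17 of 19 measured) had medians of -0.09 with siRNA 1 and -0.03 with siRNA 2 (0.00 and 0.03 over all genes), with 11 and 10 below control. HMOX1, heme oxygenase, which also answers to NRF2, was the widest, at 8.91 with siRNA 1, 8.38 with siRNA 2 and 9.62 in control, with -0.71 and -1.23 and a mean of -0.97 ± 0.30. RGS2 was 0.36 with either siRNA and FOS was -0.40 and -0.17. HSP90 co-chaperones (18 of 21) had medians of -0.07 and -0.17, with 12 and 15 below control. PPID, the cyclophilin of steroid receptor complexes, stood at 8.02, 8.28 and 8.83, with -0.82 and -0.56, CACYBP was -0.08 and -0.44, and the immunophilin FKBP4 was -0.21 and -0.30.

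HSP70 exchange factors and ubiquitin links (16 of 16) had medians of 0.07 and -0.05, with 7 and 11 below control. Among these SGTA was 0.24 and 0.38, BAG4 0.12 and 0.50, and the mitochondrial exchange factor GRPEL2 -0.04 and -0.50. TRiC and prefoldin, the cytosolic chaperonin and its feeder (16 of 16), had medians of -0.04 and -0.03, with 9 below control for each siRNA. PFDN2 stood out at -0.64 and -0.48, with PFDN6 at 0.25 and 0.12 and CCT3 at -0.06 and -0.25. A list of chaperones and quality control genes of the endoplasmic reticulum (19 of 21), with the J-domain protein SEC63 and the transcription factor XBP1 among them, had medians of 0.08 and 0.00. EDEM1 was -0.72 and -0.13, MANF -0.18 and -0.29, and ERP29 0.10 and 0.30. Mitochondrial chaperones and proteases (17 of 18) had medians of 0.08 and 0.15, with 5 and 4 below control. The mitochondrial HSP90, TRAP1, stood at 11.59, 11.73 and 11.27, with 0.32 and 0.46, and HSCB, a J protein of iron-sulfur cluster assembly, was 0.29 and 0.32. GRPEL2 is in this list too and went the other way, at -0.04 and -0.50. Of a list of 5 other heat shock factors and their binding proteins, the factors HSF4 and HSF5 were not above background and HSF2 was not analysed here. Of the binding proteins, HSBP1, which binds HSF1, was -0.25 and 0.21, and HSF2BP was above background on the siRNA 2 array only. Several genes are in more than 1 list.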

How the data were processed

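Signal per probe was measured on 3 Illumina BeadChips, 2 after TARBP2 knockdown and 1 control. The authors' deposited non-normalized table gives average intensity for each probe with its detection p-value, per the file headers. A further deposited intensity table, of linear values with nearly equal means over the arrays, served as an alternative. The authors' deposited comparison table gives log fold changes, taken here as log2 although the base is not named. The submitters' processing notes name lumi, with version not given in the sources used here.

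Intensities were background corrected from the detection p-values and quantile normalized (neqc of limma 3.58.1, R 4.3.3, offset 16). Probes were named from the platform annotation (30113 with 1 symbol, 8 with several, 17202 not listed), of which 30074 had a gene ID in the RefSeq table of GRCh38.p14. The brightest probe stood for a gene, kept if its detection p was under 0.01 on any array, which left 11768 of 20046 genes. Quantile normalization hides a shift of all transcripts, and the small offset widens differences of dim probes. Knockdown was tested against control with limma (lmFit, eBayes, two-sided, 6.78 prior degrees of freedom), adjusted over all genes. Single siRNAs were compared by 1.5-fold, without a test. Alternatives were the background correction, offset, scaling, the authors' processed values, the detection filter, the mean over detected probes, the variance prior and each siRNA left out.

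The genes, lists and naming rule were chosen with earlier results of these data known. Named are a core of 20 symbols, the 8 higher and 8 lower genes ranked by the smaller of both differences, those past 1.5-fold, those that differ most between siRNAs, the ends of each class by signal, and 3 per list. Further genes in the text were picked with their values in view. The number of arrays limits precision, and 0 columns belonged to other samples.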

Additional observations from a re-analysis of the deposited data

How the results depend on the processing

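The test over all genes called 0 genes, and 1 with equal array medians and 1 with a trended and robust prior; no heat shock or J-domain gene was called under any setting run. The count of these genes past 1.5-fold with siRNA 1 was 1, against 0 without background correction, 0 with an offset of 50, 0 with the authors' processed values, 0 when detected probes were averaged and 5 with equal array medians. Over all genes the share past 1.5-fold was then 0.527%, 0.697%, 0.603%, 2.46% and 10.9%, so the 5 of 59 lie below the share of all genes. With siRNA 2 it was 6, and from 4 to 6 over the alternatives, where the share of all genes ran from 4.1% to 10.1%. DNAJC10 and ST13 passed with siRNA 2 under all of them. Equal array medians moved the median of all genes, averaged over both siRNAs, to 0.12. The family's medians were then 0.26 with siRNA 1 and -0.16 with siRNA 2. List medians over both siRNAs were then 0.14 for chaperones of the endoplasmic reticulum, 0.020 for HSF1 targets, 0.046 for exchange factors, 0.010 for HSP90 co-chaperones, 0.20 for mitochondrial chaperones and 0.098 for TRiC and prefoldin. Under that scaling 11 small mean differences changed sign: DNAJA1 (0.025), DNAJB1 (0.078), DNAJB11 (0.090), DNAJC22 (0.039), HSP90AB1 (0.054), HSPA14 (0.046), HSPA4L (0.038), HSPA8 (0.029), HSPA9 (0.044), HSPD1 (0.022) and STIP1 (0.10). Each kept its sign relative to the shift of all genes. With the mean of detected probes HSPE1 changed sign to -0.11.

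With 1 siRNA left out, list medians ran from 0.0020 to 0.077 for chaperones of the endoplasmic reticulum, -0.053 to 0.068 for exchange factors, -0.17 to -0.070 for HSP90 co-chaperones, 0.084 to 0.15 for mitochondrial chaperones and -0.036 to -0.028 for TRiC and prefoldin. No test was left in these, as no residual degree of freedom remained. No paired analysis was possible because the groups share only replicate number 1. Genes near background, such as HSPA2, HSPA6 and HSPA7, are limited by signal over background.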
